A study of Mus musculus with 6 samples.

Results

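Neat1, Malat1, Meg3, Miat and Snhg11, genes best known for long RNAs that stay in the nucleus, were followed in 6 sections of mouse brain. They were taken by name as 5 of the 32285 genes in the count tables, with Neat1 included because earlier results of the same data showed an age difference in it. All 5 were above the filter on low counts, as were 17673 genes in all. Sections came from male C57BL/6J mice, 2 of them at each age with 1 section per mouse, and no treatment was named. The young mice were aged 6 months, those called middle 18 months, and the old ones 21 months. Frozen brains were cut coronally at 16 µm and read with Visium, in which barcoded spots on a slide capture polyadenylated RNA from the tissue lying over them. Both young sections, middle 1 and old 1 were on 1 slide and middle 2 and old 2 on another, so slide and age are partly confounded. A spot holds several cells, and these counts do not separate nuclear from cytoplasmic RNA, so the nuclear location was not checked here.

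Neat1 is the scaffold of paraspeckles, nuclear bodies that hold RNA-binding proteins and edited RNAs. It is made in a short polyadenylated form and in a long form that builds the body. After cleavage the long form ends in an encoded A-rich tract rather than in an added poly(A) tail. Malat1, its neighbour in the genome, is kept in nuclear speckles, where splicing factors are stored. Meg3 is made from the maternal copy of the imprinted Dlk1-Dio3 region and is abundant in neurons. Miat, also called Gomafu, forms its own nuclear domains in neurons, and Snhg11 is a brain-rich host gene of small nucleolar RNAs.

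The 3′ ends are shown because this assay reads RNA from its poly(A) tail, so the 3′ end bears on which form of a gene can be counted. Each line gives the last 60 bases of a transcript from the GENCODE M21 set (build GRCm38), or the last 30 for Snhg11, with a polyadenylation signal in capitals.
Neat1-201 (long form): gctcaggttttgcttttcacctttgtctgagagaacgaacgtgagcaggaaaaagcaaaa
Neat1-202 (short form): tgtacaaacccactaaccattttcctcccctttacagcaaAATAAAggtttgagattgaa
Malat1-201: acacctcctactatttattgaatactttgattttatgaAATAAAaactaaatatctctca
Meg3-209: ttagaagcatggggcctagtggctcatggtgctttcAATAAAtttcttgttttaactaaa
Miat-205: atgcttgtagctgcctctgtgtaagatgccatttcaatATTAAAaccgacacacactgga
Snhg11-201: gaaccacaaAATAAAcactgtcttccttaa

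The search was for AATAAA or ATTAAA, on the transcript's own strand, and 34.4% of 141767 transcripts held one of them in their last 60 bases. Neat1-201, which is 20771 bases long, held neither in that window, whereas Neat1-202, at 3004 bases, held AATAAA 14 bases before its end. The counts are per gene, so the 2 forms cannot be told apart in any value given here. Inner runs of 8 or more A, to which an oligo(dT) primer can also pair, were present in 13.8% of transcripts. Malat1-201 held 1 such run of 12, 298 bases from its end, and its surroundings read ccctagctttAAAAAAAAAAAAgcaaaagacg. Meg3-209 held 7 runs, the longest of 16, whereas both Neat1 forms and Miat-205 held none. The mature ends of long Neat1 and of Malat1 are known to be A-rich tracts folded into a triple helix. The last 11 bases of Neat1-201, AAAAAGCAAAA, a length picked after both ends had been seen, were searched on each transcript's own strand. They recurred once in Malat1-201, ending 292 bases before the annotated end and taking in the end of the run of 12. Of all transcripts 0.436% held it, among them Snhg11-201, where it ended 945 bases before the end.

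Neat1 (ENSMUSG00000092274) lies at chr19:5824708-5845478 on the minus strand, and Malat1 (ENSMUSG00000092341) at chr19:5795690-5802672 on the same strand, 22035 bases away. Meg3 (ENSMUSG00000021268) lies at chr12:109541001-109571726 on the plus strand, Miat (ENSMUSG00000097767) at chr5:112213228-112229395 on the minus strand and Snhg11 (ENSMUSG00000044349) at chr2:158375638-158386145 on the plus strand. The annotation lists the first 4 as long intergenic noncoding RNAs and Snhg11 as protein coding.

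The sections held 2573 to 2973 spots and 60938938 to 77557934 UMIs, or unique molecules. Median UMIs per spot were 20370 and 21766 for old sections and 25904.5 to 30093 in the other 4, and mitochondrially encoded RNA took 13.26% to 16.48%. Clustering of 16741 spots gave 20 clusters, of which 14 were named from marker genes as 8 regions with 12998 spots, and 3743 spots stayed unnamed. No cluster could be named amygdala. The cluster called meninges also held haemoglobin and outer cortex genes, so values given for meninges include outer cortex. Young 1 had 64 hippocampal spots, 2.487% of its spots, against 182 to 292 in the others, and 5 of them were in the dentate gyrus cluster, against 57 to 82. In a finer clustering (resolution 1.2) it had 0 spots in a hippocampal cluster led by Spink8 and Fibcd1, against 31 to 59 in the others. Hippocampal values of young 1 thus come from a different mix of spots. Spot barcodes are position codes, and 2082 to 2826 of them recurred in each pair of sections.

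Neat1 was lowest in the young sections. In whole sections its level, in counts per 1000000 UMIs (CPM) scaled by TMM factors, was 74.2 and 72.8 for young, 123.9 and 123.1 for middle and 123.5 and 149.9 for old sections. All 4 middle and old sections lay above both young ones, as did both middle sections for 19.1% of all genes, and old 1 was level with the middle sections. The old mean, 137 ± 18.7 (SD, n = 2), was 1.86 times the young mean of 73.5 ± 0.97 (SD, n = 2), and the middle mean of 123.5 ± 0.559 (SD, n = 2) was 1.68 times it. Log2 differences were 0.90 (SE 0.086) for old minus young, 0.75 (SE 0.086) for middle minus young and 0.15 (SE 0.085) for old minus middle. These contrasts chose Neat1 and are given with no test. In a bulk sum of this kind, fewer cells of a type and less RNA per cell cannot be told apart.

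The difference was also there within the first slide, where middle 1 lay 0.75 and old 1 lay 0.75 above the young mean on the log2 scale. Among same-numbered sections, old minus young was 0.74 for replicate 1 and 1.04 for replicate 2. With equal numbers of spots of each named region in every section it was 0.88. All these values are parts of the contrast that chose Neat1, with middle 1 and old 1 alone for their ages on the first slide. They are a description and no separate evidence.

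**Figure D1:**
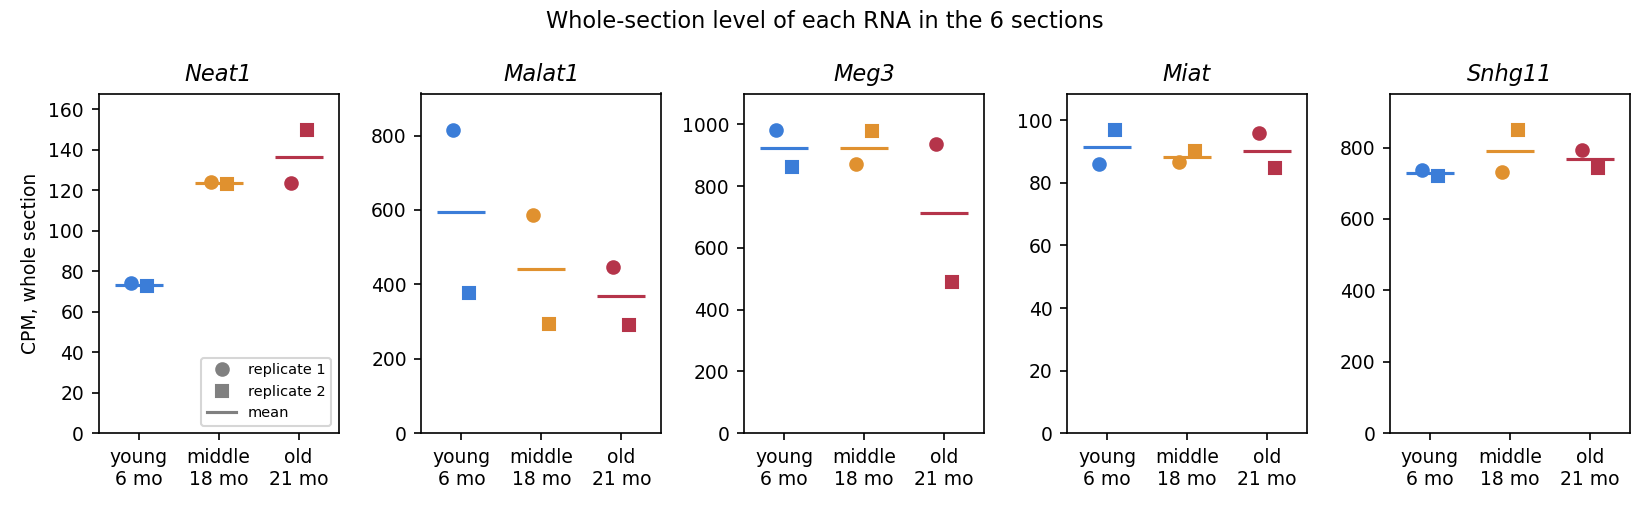
Whole-section CPM of each RNA (vertical axis, from 0) at 3 ages, with circles for replicate 1, squares for replicate 2 and a line at the mean of the 2 sections. Neat1 is near 73 in both young sections and 123.1 to 149.9 in the other 4, Malat1 is higher in replicate 1 at every age, and Meg3 is low in old 2.

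The other members had no such shift. In whole sections 2 of the 5 members, Neat1 and Snhg11, were higher in both old than in both young sections, none was lower in both, and 3 overlapped. Of all 17673 genes, 21.5% were higher and 22.3% lower without overlap in that comparison, so a count of 2 cannot be read as more than the background, and Neat1 was part of the choice. Median log2 difference over all genes was -0.0023.

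Malat1 differed more between the sections of an age than between ages. Its levels were 815 and 376 CPM for young, 587 and 294.5 for middle and 446 and 289.5 for old sections. The first replicate was higher at each age, by 2.17, 1.99 and 1.54 times, and so the ages overlapped. The first replicate was also the higher one at all 3 ages in 8 of 8 regions. Of 17673 genes, 2195 had replicate 1 above replicate 2 at all 3 ages, and 4 of them, Malat1 included, did so by at least as much as Malat1 in their smallest difference. The first slide held all 3 replicate 1 sections and young 2, so the gap of 2.17 times between the young sections lay within 1 slide. The part of the slide in the middle and old levels was not tested.

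Old minus young for Malat1 was -0.70 (SE 0.60) on the log2 scale, and leaving out young 1 brought it to -0.033. Replicate 1 alone gave -0.87 and replicate 2 alone -0.38, and the SE was nearly as large as the difference. Because Neat1 and Malat1 moved differently between sections, the UMIs of Neat1 per 100 of Malat1 ran from 9.1 in young 1 and 19.3 in young 2 to 21.1 and 41.8 for middle and 27.7 and 51.8 for old sections. The lowest old ratio stood above the highest young one, but young 2 and middle 1 were close.

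Meg3 was level in 5 sections and low in the sixth. It measured 982 and 862 CPM for young, 872 and 978 for middle, 936 in old 1 and 488 in old 2. Old 2 was the lowest of the 6 in 8 of 8 regions, at 0.454 to 0.595 times old 1. Among 7169 genes with a mean of at least 20 CPM, Meg3 alone lay this far below the other 5 sections in old 2, at -0.82 on the log2 scale from the next lowest. Old minus young was -0.37 (SE 0.33) with old 2 and 0.021 (SE 0.11) without it, and -0.92 with old 2 as the sole old section.

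Rian and Mirg, also made from the imprinted region, spanned a narrower range over the 6 sections than Meg3. Rian, a long RNA that carries small nucleolar RNAs, measured 229 and 208 CPM for young, 214 and 229.9 for middle, 216 in old 1 and 192 in old 2. Mirg, a host of microRNAs, ran 27.7, 24.1, 22.9, 26.4, 23.8 and 24 CPM in the same order. Old 2 was thus the lowest of 6 for Rian by a narrow gap and not for Mirg.

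**Figure D2:**
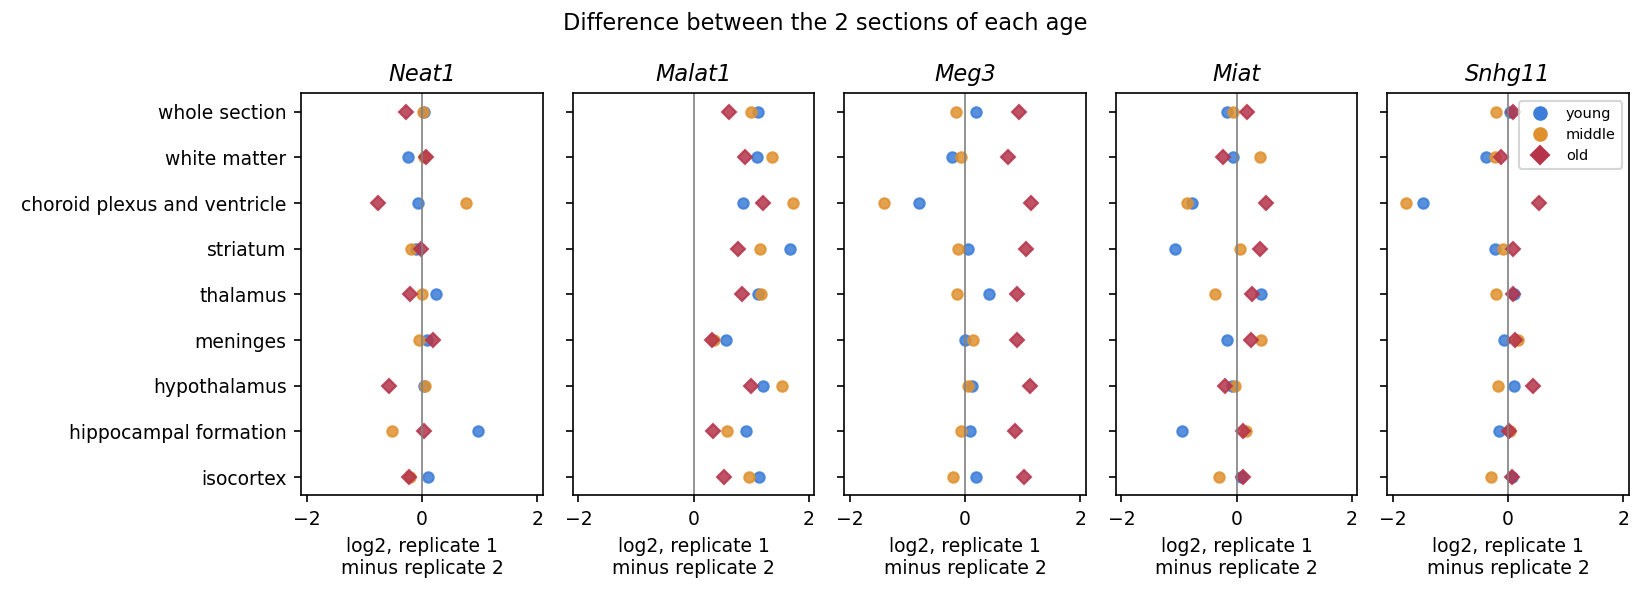
Log2 difference between replicate 1 and replicate 2 of each age (colours) in the whole section and 8 regions. Every Malat1 point lies above 0, the old points of Meg3 lie well above 0 in all rows, and Neat1 is scattered around 0.

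Miat and Snhg11 were the steadiest of the 5. Miat measured 86 and 96.9 CPM for young, 86.5 and 90.2 for middle and 95.9 and 84.6 for old sections, with an old minus young difference of -0.02 (SE 0.080). Snhg11 measured 736 and 719 CPM for young, 732 and 849 for middle and 793 and 744 for old sections. Its old minus young difference was 0.08 (SE 0.078), and the lowest old section stood just above the highest young one. Within-age SD on the log2 scale was 0.10 for both RNAs, 0.11 for Neat1, 0.40 for Meg3 and 0.66 for Malat1.

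The 5 RNAs were laid out differently over the brain. These region levels are CPM within a region, unscaled, averaged over 6 sections, and are a description, since spots were grouped by their own expression (with the members kept out). Neat1 was highest in white matter (led by genes that include Mal, Mag and Mog, myelin genes) at 771 ± 223 CPM (SD, n = 6), the top region in 6 of 6 sections. Next came the choroid plexus and ventricle cluster (led by Ttr, the transthyretin of the choroid plexus) at 437 ± 141, then striatum at 119, thalamus at 108, meninges at 72.4, hypothalamus at 66.4, hippocampal formation at 62.4 and isocortex at 56.1. White matter and choroid plexus overlapped in range but kept their order in every section, and choroid plexus and striatum did not overlap. Below that, neighbours in the order overlapped throughout. Summed oligodendrocyte markers (10 genes) in the choroid plexus and ventricle cluster were 9159 to 21760 CPM, against 6594 to 7712 in whole sections. Their part in its Neat1 level was not tested.

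White matter held 3.43% to 5.57% of a section's UMIs and 21.45% to 36.25% of its Neat1 UMIs. Isocortex held 33.4% to 40.6% of all UMIs and 15.1% to 21.4% of Neat1. Inside the isocortex Neat1 was higher in clusters led by genes of deeper layers, from 27.4 CPM in the cluster led by Lamp5 and Vip, through 71.6 in that led by Trbc2 and Rprm, to 135.3 in the deep cluster led by Ccn2 and Cplx3. The next highest cluster after white matter and choroid plexus was an unnamed one led by Pvalb, Six3 and Gad1, at 223 CPM.

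**Figure D3:**
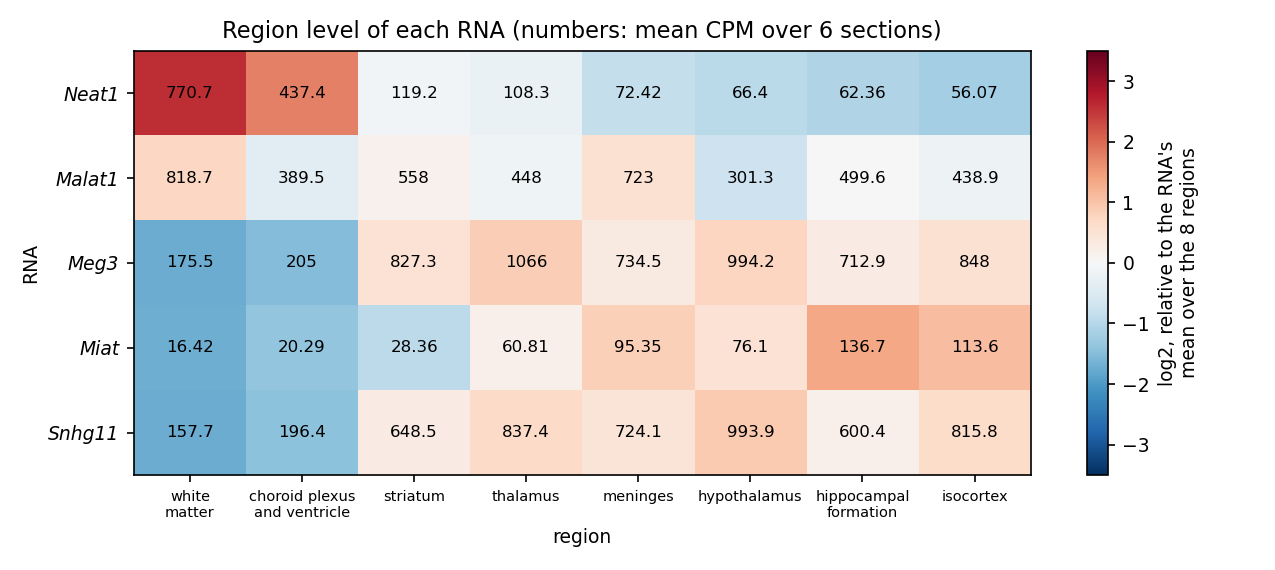
Mean CPM over 6 sections (numbers) of each RNA in 8 regions, coloured by log2 level relative to that RNA's own mean over the regions. Neat1 peaks in white matter and in the choroid plexus and ventricle cluster, where Meg3, Miat and Snhg11 are at their lowest.

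Malat1 varied least over regions, by the ratio of its highest to its lowest region mean. It was highest in white matter at 819 ± 409 CPM (SD, n = 6) and lowest in hypothalamus at 301 ± 159, the lowest region in 6 of 6 sections. All neighbours in its order overlapped. Meg3 was highest in thalamus at 1066 ± 228 and hypothalamus at 994 ± 234, and lowest in white matter at 175.5 ± 45.5. An unnamed cluster led by Nts, Baiap3 and Hap1 stood above both, at 1440 CPM for Meg3 and 1204 for Snhg11. Snhg11 was highest of the named regions in hypothalamus at 994 ± 146, in 6 of 6 sections, and lowest in white matter at 158 ± 32.7. For both RNAs the choroid plexus lay below the hippocampal formation with no overlap.

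Miat was a grey matter RNA with a peak in the hippocampal formation, at 136.7 ± 29.6 CPM (SD, n = 6), above isocortex at 113.6 ± 9.59 in 4 of 6 sections. The dentate gyrus cluster (led by C1ql2) held 216 ± 26.5 CPM of Miat. Striatum, at 28.4 ± 13.2, was the grey matter region with least Miat, and white matter had 16.4 ± 1.78. In the 64 hippocampal spots of young 1, few of them dentate, Miat was 81.4 CPM, against 127.7 to 159.5 in the other 5 sections. In the other hippocampal cluster (led by Cabp7 and Spink8) Miat also varied, from 71 to 131.8 CPM over the 6 sections. Its means there were 101.4 for young, 112.2 for middle and 123.8 for old sections. The part of the missing spots in the young 1 value was not tested.

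The genes with the most similar layout over the 48 region-by-section values were picked by Pearson's r on log2(CPM + 1) among 7156 genes. The points share 6 libraries, so r is a description. For Neat1 they were Plaat3 (r 0.969), Car2 (0.963), which encodes carbonic anhydrase 2, Stxbp3 (0.962) and Cd82 (0.96), a tetraspanin. For Malat1 the likeness was weaker, with Ccdc88a at 0.746 first, and Zfp91, Pabpc1 and Ptn after it at 0.675, 0.674 and 0.634. Meg3 was closest to Snhg11 itself (0.926), then Unc80 (0.924), Slc12a5 (0.922), the neuronal potassium-chloride transporter, and Ttc3 (0.92). Miat was closest to Ube2ql1 (0.94), Abr (0.932), Mtfp1 (0.928) and Bdnf (0.926), a neurotrophin. Snhg11 was closest to Adar (0.974), an RNA-editing enzyme, Habp4 (0.971), Cacna1b (0.971), a calcium channel subunit, and Pdxp (0.969). Between members, r was -0.86 for Neat1 with each of Meg3 and Miat, -0.85 with Snhg11, and 0.087 for Neat1 with Malat1.

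Age differences were then taken region by region, with each region scaled by its own TMM factors. Neat1 was higher in both old than in both young sections in 6 of 8 regions and overlapped in 2, the hypothalamus and the hippocampal formation. The share of all genes higher without overlap was 22.4% in white matter, 20.4% in isocortex, 19.6% in striatum, 18.3% in hypothalamus, 18.2% in thalamus, 17.5% in the hippocampal formation, 17.3% in choroid plexus and 16.8% in meninges. These contrasts belong to the choice of Neat1, so nothing is read from its count. In white matter Neat1 was 486 and 576 CPM for young, 792 and 772 for middle and 1025 and 972 for old sections, higher at each step with no overlap. Old minus young was 0.91 (SE 0.099) and middle minus young 0.56 (SE 0.099) on the log2 scale.

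Striatum had the same stepwise order, with 76.4 and 82.5, then 117 and 134, then 151 and 153 CPM, and an old minus young difference of 0.94 (SE 0.10). In white matter 22% of genes were higher at the middle age than in the young and 20.9% higher in the old than at the middle age, both without overlap, and in striatum 17.8% and 18%. In isocortex the middle sections, at 65.3 and 75.6 CPM, were as high as the old, at 58.4 and 68.2, and the young were at 35.4 and 32.9. Its differences were 1.04 (SE 0.090) for middle minus young and 0.89 (SE 0.091) for old minus young. Thalamus likewise had its high level by the middle age, at 131.1 and 131.3 CPM, with 112 and 130.1 for old and 78.5 and 65.9 for young sections. Middle sections were above young ones without overlap for 20.1% of genes in isocortex and 15.4% in thalamus. The meninges cluster gave 0.72 (SE 0.13) for old minus young. Its summed neuron markers (12 genes) were 5418 to 6247 CPM, against 4714 to 5274 in striatum, so its values are partly those of cortex. Choroid plexus gave 0.69 (SE 0.30) for old minus young. Leaving out old 2 brought the choroid plexus value to 0.24.

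Hypothalamus and hippocampal formation stood apart. Hypothalamic Neat1 was 61.7 and 60.2 CPM for young, 74.3 and 71.8 for middle, 53.3 in old 1 and 78.9 in old 2, for a difference of 0.12 (SE 0.16). The 2 old sections lay on either side of the young ones, and the difference was 0.37 without old 1 and -0.20 without old 2. Summed oligodendrocyte markers (10 genes) in that cluster were 5121 to 5793 CPM for young, 4229 to 5142 for middle, 3024 in old 1 and 5170 in old 2. Old 1 was thus lowest in both, and the part of these cells in the Neat1 value was not tested.

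In the hippocampal formation Neat1 was 78.4 CPM in young 1 and 40.2 in young 2, 53.5 and 77 for middle and 63.8 and 62.2 for old sections, for a difference of 0.20 (SE 0.34). Without young 1 the difference was 0.65, and without young 2 it was -0.31. Oligodendrocyte markers summed to 8764 CPM in the hippocampal spots of young 1 and to 2817 to 3658 in the other 5 sections. Their part in the Neat1 value was not tested.

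**Figure D4:**
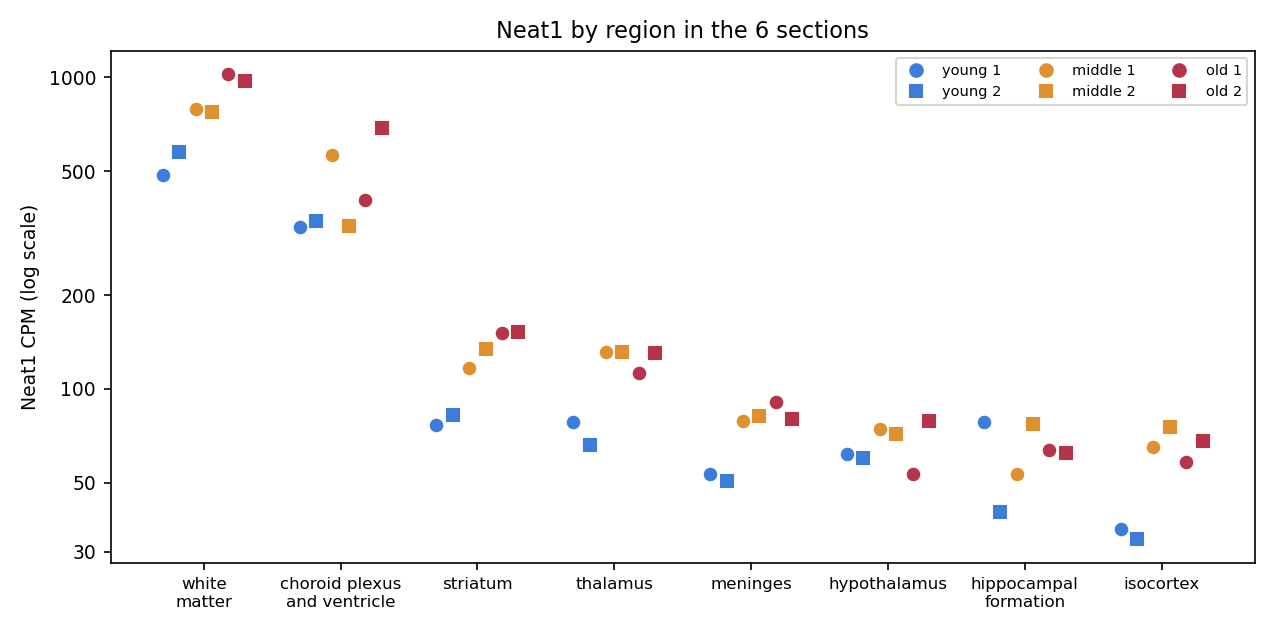
Neat1 CPM (log axis) in 8 regions, with 1 point for each section, coloured by age and with circles for replicate 1 and squares for replicate 2. In 6 regions both old points lie above both young points, and in hypothalamus and hippocampal formation they overlap.

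For the other members, regions mostly repeated the whole section. Malat1 was lower in the old mean in 8 of 8 regions, by -0.25 to -1.08 on the log2 scale, and overlapped between old and young in all 8. Meg3 was lower in the old mean in 7 of 8 regions and overlapped in 7, the exception being meninges, where 17% of genes were lower without overlap. In isocortex Malat1 was 789 and 358 CPM for young, 523 and 269 for middle and 420.2 and 291 for old sections. Meg3 in isocortex was 975 and 852, then 855 and 989, then 953 and 469 CPM.

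Snhg11 was higher in both old than in both young sections in 3 of 8 regions, which were white matter, thalamus and the hippocampal formation. In white matter it was 112 and 146.3 CPM for young, 175 and 204 for middle and 148.5 and 162.5 for old sections. Middle minus young was 0.55 (SE 0.11) and old minus young 0.27 (SE 0.11). Old 1 was only just above young 2. Meg3 in white matter was likewise highest at the middle age, at 216 and 228 CPM against 158 and 184 for young sections. Summed neuron markers (12 genes) in white matter spots were 1388 and 1524 CPM for young, 2036 and 2152 for middle and 1634 and 1759 for old sections. That order matches the order of Snhg11 at the level of ages, and the part of neuronal RNA in these values was not tested.

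Miat had no common direction. It was 0.31 (SE 0.28) higher on the log2 scale in the old hippocampal formation, where young 1 was low. In striatum old minus young was -0.27 (SE 0.41), and young 2, at 51 CPM, stood above young 1 at 24.4 and the old at 33.7 and 25.4. The middle sections of striatum, at 17.98 and 17.25 CPM, lay below both young ones (-1.01, SE 0.42), as in 17.9% of genes. Meninges was the 1 region where both old sections lay below both young (-0.24, SE 0.13), as in 17% of genes.

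**Figure D5:**
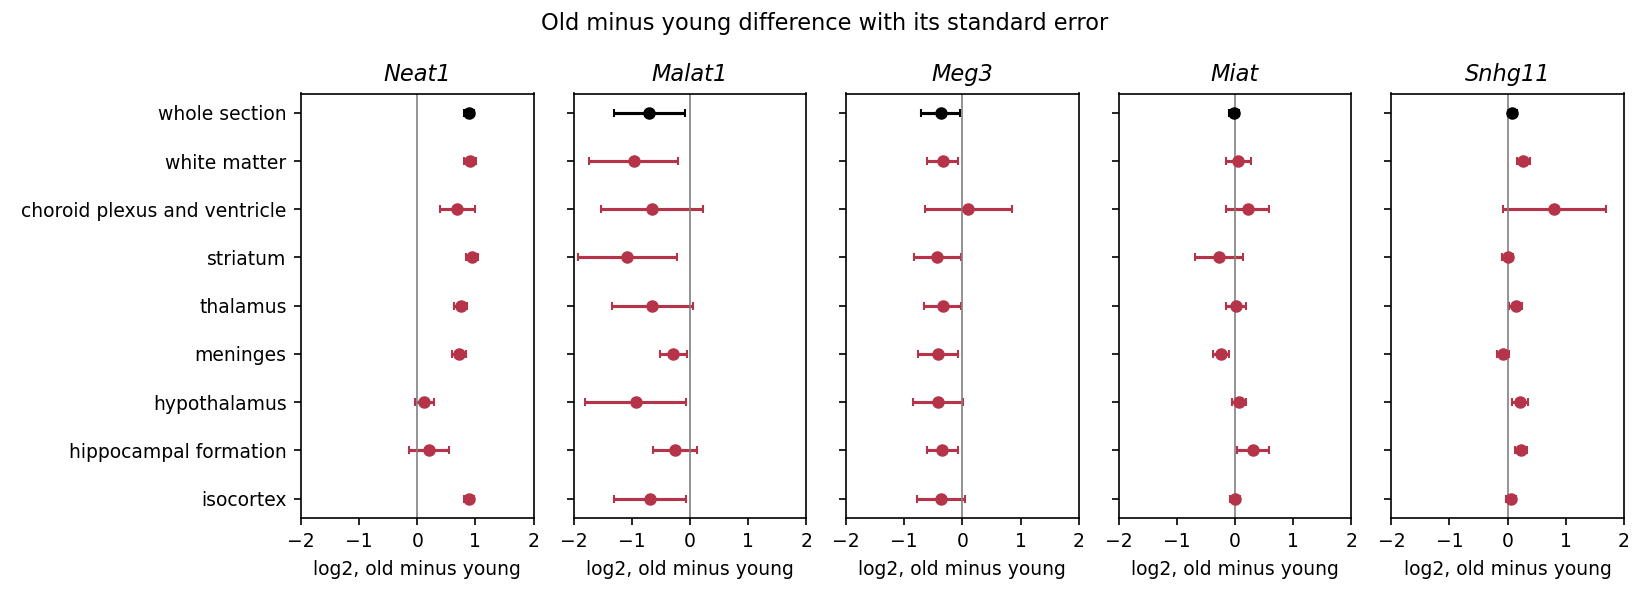
Old minus young difference on the log2 scale with its standard error (bars) for each RNA in the whole section (black) and 8 regions (red). Neat1 lies between 0.69 and 0.94 in 6 regions and near 0.1 to 0.2 in hypothalamus and hippocampal formation, and the bars of Malat1 are wide.

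Whether a member's age difference in a region departed from that in all other spots was tested with edgeR's quasi-likelihood interaction term, with sections as a block and Benjamini-Hochberg adjustment over all genes. Of 40 such tests 1 was called at an adjusted p under 0.05, and 5 had an unadjusted p under 0.05. The call was Neat1 in hypothalamus, whose old minus young difference was lower than elsewhere by -0.81 (SE 0.13, edgeR adjusted p = 0.0088). Neat1 went from a mean of 59.8 to 67.2 CPM there and from 72.6 to 142.6 CPM in all other spots. The hypothalamus held 3.03% to 5.29% of a section's UMIs, so the other spots were nearly the whole section whose rise chose Neat1. A region without that rise was favoured to test as lower, and this p-value is not independent of the choice. In that comparison 0.0116% of 17287 genes were called, 2 genes in all. The share called was 0.0531% in isocortex, 0% in the hippocampal formation, 0.0119% in thalamus, 0.0118% in striatum, 0.235% in meninges and 0.0115% in choroid plexus. The call did not hold under 5 of 12 alternatives, which gave adjusted p from 7.675e-07 to 0.337. They were limma on within-section differences with and without the replicate number as a block, both other cluster resolutions, and the fit without young 1.

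Malat1 in white matter had an interaction of -0.32 (SE 0.095), from 1084 to 578 CPM there against 561 to 365 elsewhere. It missed the threshold (edgeR adjusted p = 0.079) and met it under 8 of 12 alternatives. In white matter 1.84% of 17056 genes were called. Neat1 in white matter had an interaction of 0.12 (SE 0.11, edgeR adjusted p = 0.83), so its high level there did not come with a larger relative difference that this test could detect. The remaining tests, Malat1 in the hippocampal formation (0.46, SE 0.16, edgeR adjusted p = 1) among them, were not called.

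Genes that work with these RNAs moved little. Of 25 paraspeckle protein genes, all tested, none was called in whole sections for old minus young in edgeR, 7 had positive and 18 negative differences, and the median was -0.05. Across all genes 29 of 17673, or 0.164%, were called, and 2246 had an unadjusted p under 0.05, of which 0 were paraspeckle genes. DESeq2 likewise called 0 of the list genes. Hnrnpk, which steers the choice between the Neat1 forms, had an old minus young difference of -0.02 (SE 0.050) at 363 CPM. Matr3 (-0.14, SE 0.059) and Ewsr1 (0.15, SE 0.13) had the largest differences. Nono and Sfpq, the core proteins of the body, were at -0.01 (SE 0.060) and -0.06 (SE 0.074). In white matter none of the 25 was called either, and Sfpq was at -0.27 (SE 0.12, edgeR adjusted p = 0.30). In isocortex no gene of any of the 6 lists was called by edgeR, against 0.2% of all genes, and 2 were without young 2.

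The 21 nuclear speckle genes had no call in whole sections and 5 unadjusted p under 0.05. Srsf5, a splicing factor, measured 158 and 172 CPM for young and 199 and 189.8 for old sections (0.24, SE 0.071, edgeR adjusted p = 0.27). Clk1, a kinase of such factors, measured 89.4 and 81.6 for young and 74.6 and 73.1 for old (-0.21, SE 0.064, edgeR adjusted p = 0.27). Neither gene overlapped between these ages, and neither passed the test. Srsf3, the next most abundant of the list after Srsf5, was at -0.05 (SE 0.053). Medians were -0.04 for old minus young and 0.01 for middle minus young.

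Genes beside Neat1 and Malat1 on the chromosome were not called in any whole-section contrast, with 12 of 12 tested. Over all genes 0.0679% were called for middle minus young and 0% for old minus middle, where 361 had an unadjusted p under 0.05. The largest difference was Cdc42ep2, an effector of the GTPase Cdc42, at 21.4 and 18.5 CPM for young and 23.8 and 26.2 for old sections (0.32, SE 0.088, edgeR adjusted p = 0.25). Frmd8 was at 0.21 (SE 0.068, edgeR adjusted p = 0.29), and Dpf2, among the most abundant of the list, at -0.09 (SE 0.051). Median for the list was 0.01.

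Of the imprinted region, 9 genes were tested in whole sections and none was called for old minus young. Rian was at -0.10 (SE 0.077) and Mirg at -0.11 (SE 0.089), and Begain at 0.09 (SE 0.061). Dio3, a thyroid hormone deiodinase, and its antisense Dio3os had the largest differences, at -0.59 (SE 0.36) and -0.65 (SE 0.40), at means of 0.834 and 0.124 CPM. In white matter 4 were tested, and 2 rose from young to middle age in edgeR. They were Rian, from 41.8 and 48.1 CPM to 68.7 and 59.3 (0.52, SE 0.14, edgeR adjusted p = 0.04), and Begain, from 21.7 and 26.6 to 37.2 and 37.5 (0.62, SE 0.17, edgeR adjusted p = 0.047). In that comparison 2.69% of 12514 genes were called. Begain encodes a postsynaptic protein. The neuron markers given above for these spots were highest at the middle age, and their part in the rises of Rian and Begain was not tested. Old minus young did not pass for either, at 0.32 and 0.43 (edgeR adjusted p = 0.32 and 0.25).

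The small nucleolar RNA host genes, the family of Snhg11, had 17 members tested and no call in whole sections, with a median of 0.05. Gas5 and Snhg8, the most abundant, were at -0.07 (SE 0.092) and -0.10 (SE 0.071), and Snhg6 and Snhg20 had the largest differences, at -0.20 (SE 0.099) and 0.20 (SE 0.075). In white matter 2 of 17 fell from young to old, in a comparison with 2.33% of 12514 genes called. These 2 were the only genes called there over all the lists, so no fall of the family is read from them. Snhg8 was 165 and 153 CPM for young, 159 and 133 for middle and 108 and 103 for old sections (-0.59, SE 0.10, edgeR adjusted p = 0.00095). It also fell from middle to old age (-0.47, SE 0.10, edgeR adjusted p = 0.034), where 0.527% of genes were called. Gas5, a growth-arrest transcript, was 1237 and 1065 for young and 788 and 934 for old sections (-0.42, SE 0.11, edgeR adjusted p = 0.03). Leaving out 1 section at a time gave 0 to 4 list genes called in white matter, with 0 without old 2. DESeq2 and the fit with slide as a block called 1 each.

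Among 20 other long noncoding RNAs tested in whole sections none was called, 8 differences were positive and 12 negative. Oip5os1, also known as Cyrano, was 200.2 to 221 CPM in all 6 sections, and Peg13, an imprinted RNA, 164 to 179. Kcnq1ot1, an imprinted nuclear RNA, had the largest difference at -0.59 (SE 0.41), with 18.2 and 10 CPM for young and 10.6 and 8.13 for old sections. It was higher in replicate 1 than in replicate 2 at each age, as was Malat1. Lncpint came next at -0.37 (SE 0.41), at a mean of 0.22 CPM.

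Cell markers were read beside these results. In whole sections summed microglia markers (12 genes) were 548 to 601 CPM for young, 692 to 748 for middle and 766 to 888 for old sections, with 2 of 12 called higher in old than in young in edgeR, against 0.164% of all genes called. In white matter they were 1334 to 1643, 1934 to 2256 and 2964 to 3574, with 9 of 12 called higher in edgeR, against 2.33% of all genes called in white matter. Microglia markers thus moved with Neat1 over the ages in whole sections and white matter. In thalamus they were 485.5 to 499.8 CPM for young and 727.1 to 782.4 for old sections, and Neat1 was also higher there without overlap. In hypothalamus they were 488.5 to 493.5 for young and 592.9 to 680.1 for old, whereas Neat1 overlapped. In isocortex they were 420.5 to 460.7 for young and 487.7 to 537.4 for old. Their median log2 difference there was 0.21, and that of Neat1 was 0.89. In meninges they were 797.7 to 839.8 for young and 902.7 to 915.8 for old. Their median there was 0.09, and Neat1 was at 0.72. The part of microglia in the Neat1 difference was not tested. Oligodendrocyte markers in whole sections were 6634 to 7094 for young and 6594 to 7712 for old. In isocortex they were 3228 to 3376 for young, 3628 to 3946 for middle and 3420 to 3806 for old, with 0 of 10 called. They ranked the 6 sections there in the same order as Neat1 did. In thalamus they overlapped, at 6942 to 7336 for young and 6537 to 7633 for old. In white matter they were 53790 to 56310 for young, 43420 to 47610 for middle and 47260 to 50890 for old, with 1 of 10 called lower in old, and their part in the Neat1 difference was not tested. Astrocyte markers in white matter were 4524 to 4705 for young and 5408 to 5993 for old, with 2 of 10 called higher. Neuron markers overlapped between ages in whole sections, at 7358 to 7977 for young and 7537 to 7662 for old. Endothelial and mural markers (10 genes) in whole sections were 338.8 to 346.3 for young, 375.4 to 381.8 for middle and 359.9 to 383.9 for old. In white matter they overlapped, at 518.1 to 649 for young and 597.1 to 613.4 for old. In both, 0 of 10 were called, and their part in the Neat1 difference was not tested. No marker of these lists was at 0 in a whole section or in white matter.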

How the data were processed

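Deposited gene-by-spot tables of whole-number UMI counts were used. The authors made them with Space Ranger, version 1.3.1 per the file headers and 3.1 per the submitters' processing notes, on build mm10. How introns were counted is not given in the sources used here. The members and gene lists were chosen with earlier results of these data known. Spots under 500 UMIs were left out (2 spots). Counts per 10000 UMIs, 2000 variable genes (members, gene lists, mitochondrial and haemoglobin genes left out), 30 components and 20 neighbours were clustered with scanpy 1.11.5 (Leiden, resolution 0.8). A cluster took a region's name when 3 or more of its markers were among its 50 leading genes, 1 or more among the first 10, and at least 2 times as many as for the next region. The ranking of leading genes by fold of means, and the Leiden implementation, were settled after clusters had been seen.

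UMIs were summed per section and region, scaled by TMM and fitted with edgeR 4.0.16 (quasi-likelihood, all 3 ages, Benjamini-Hochberg adjustment over all genes, threshold 0.05); interactions held section as a block. SE is the log2 difference over the root of F. Members' age and region differences carry no test. Genes named from a list are the called ones (up to 3 per direction) or, with none called, the 2 most abundant and the 2 with the largest difference; Nono, Sfpq and Mirg in whole sections fall outside this and were chosen after their values were seen. Some genes the rule would name are not reported here. DESeq2 1.42.0, limma 3.58.1, other filters, scalings, blocks, resolutions and left-out sections were the alternatives. Replicates are separate mice, and at the middle and old ages they also lay on different slides. P-values thus measure a spread between 2 sections per age in which mouse, slide and section are mixed. For interactions it is the spread of within-section differences. Counts of replicate sections differed by far more than counting error.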

Additional observations from a re-analysis of the deposited data

Results flagged for a closer look

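The old minus young difference of Neat1 in the hypothalamus departed from that in all other spots by -0.81 on the log2 scale (edgeR interaction term, adjusted p = 0.0088). Neat1 was chosen for its rise in whole sections, which are mostly those other spots, so the test was not independent of the choice. The hypothalamic mean was 59.8 CPM in the young and 67.2 CPM in the old sections, against 72.6 and 142.6 CPM elsewhere. Of the 2 old sections, 1 lay above and 1 below both young ones there. Over 12 alternatives the value ran from -0.997 to -0.51, always in the same direction, and 7 of them met the threshold. Each age had 2 sections, too few for a check of single outlying values.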

How the results depend on the processing

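Of 160 whole-section values of the members under an alternative, 153 moved by less than the spread between replicates and 7 moved more, all on leaving out a section. Old minus young, leaving out 1 section at a time, ran from 0.75 to 1.03 for Neat1, -1.15 to -0.033 for Malat1, -0.92 to 0.021 for Meg3, -0.11 to 0.07 for Miat and 0.03 to 0.12 for Snhg11. Over the other alternatives Neat1 ran from 0.82 (slide as a block) to 0.90, and Malat1 from -0.70 to -0.32. By region, 439 of 480 values moved by less than that spread. The sign changed in 9 of the 160 values and in 30 of the 480, among them 3 of Neat1: in the hippocampal formation (-0.31 without young 2) and in hypothalamus (-0.20 without old 2, -0.0093 with slide as a block). Only 1 of the 30 started from a difference larger than the replicate spread, Snhg11 in hypothalamus, which ran from -0.013 without old 1 to 0.42 without old 2. The cause was not tested. List genes called in isocortex numbered 0, and 0 to 2 with a section left out; in white matter 2, and 0 to 4 with a section left out, 1 with DESeq2 and 1 with slide as a block. At Leiden resolution 0.5 hypothalamic Neat1 was 101.8 CPM and its old minus young difference 0.43; at 1.2 they were 98.1 CPM and 0.37, with the cluster holding more spots.

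Ages share replicate numbers 1 and 2 and nothing in the labels ties them to a shared animal or day. Deviations of same-numbered sections correlated at 0.17 to 0.51 over genes. With the replicate number as a block, Neat1 old minus young was 0.89 in whole sections, and the hypothalamic Neat1 interaction in limma was -0.83 (adjusted p = 0.17). Of 480 interaction values, 461 kept their call, 14 gained and 5 lost one. Region levels moved beyond the replicate spread in 13 of 320 cases.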
